A study of Mus musculus with 5 samples.

Results

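Brain RNA bound by deiminated MA-Brent-1 was compared with brain RNA bound by the same protein without deimination. The comparison rests on 4 of the 5 arrays of the series, 2 for the deiminated and 2 for the non-deiminated protein. The remaining array held the initial brain RNA before any binding, and it was not used. All 45037 probe sets of the array that are not controls entered the comparison, out of 45101 in all. Most weight was given to the 6949 probe sets with a signal above 200 on each of the 4 bound arrays, called bright below, which represent 4697 of the 18193 genes measured. Signals are those of the MAS5 algorithm, on a linear scale, and a probe set is a group of short probes for 1 transcript. Differences are deiminated minus non-deiminated on the scale of log2(signal + 4), and the pseudocount of 4 understates the differences of dim transcripts.

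The 4 bound samples were total RNA from the brain of Mus musculus, eluted from MA-Brent-1 after binding. The titles of deiminated replicate 2 and non-deiminated replicate 1 name the protein REFP2, and those of deiminated replicate 1 and non-deiminated replicate 2 name it MA-Brent-1. The title of non-deiminated replicate 2 calls it a biological repeat. The sources used here do not give the strain, sex and age of the mice, where the protein came from, the enzyme used for deimination or the binding and elution steps. Replicates are numbered by sample order, and the numbers tie no array to another. All p-values reflect just the spread between these 4 arrays, which may be technical.

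MA-Brent-1 is a member of the REF/Aly family of RNA-binding adaptor proteins. Such adaptors join newly made mRNA as part of the TREX complex, together with a DEAD-box helicase and the THO proteins, and pass it to the export receptor NXF1 for its way through the nuclear pore. They touch RNA largely through stretches rich in arginine. Deimination, carried out by peptidylarginine deiminases, turns arginine into citrulline and removes its positive charge, and myelin basic protein is a known deiminated protein of the brain. The comparison asks whether that change in the protein alters the relative make-up of the brain RNA it binds. Mean signal, apart from the 2% most extreme values at either end, was 150 on all 4 bound arrays. A gain or loss shared by all RNAs therefore cannot be seen in these values, and the total amount bound was not tested.

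The bound RNA carried transcripts of neurons, astrocytes and oligodendrocytes. Of the marker genes measured, 26 of 27 for neurons, 16 of 16 for astrocytes and 12 of 14 for oligodendrocytes were bright. Fewer were bright for microglia (3 of 13), endothelial cells (3 of 11), meninges (2 of 10) and choroid plexus (1 of 8). None of the 11 skeletal muscle markers, 4 red blood cell markers or 17 photoreceptor markers was bright, and the only bright liver marker was Ttr, the thyroxine carrier that the choroid plexus also makes. The number of probe sets with a signal above 200 ran from 8364 to 8569 over the 4 arrays. Signal at the 3' end of the actin control was 51.7 and 45.2 times that at its 5' end on deiminated replicates 1 and 2. It was 29.8 and 55.6 times on non-deiminated replicates 1 and 2. For the Gapdh control the ratios were 21.9 and 31.9, and 31.7 and 17.4, in the same order. Where the probe sets of a gene lie along its transcript was not examined. The hybridisation controls, bacterial and phage transcripts added before hybridisation, split each group, with log2 means of 10.59 on replicate 1 and 12.60 on replicate 2 of the deiminated group and of 10.08 and 13.04 in the other. In RNA eluted from a protein, fewer cells of a type, less RNA per cell and weaker binding or recovery cannot be told apart.

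No transcript passed the test for a difference between deiminated and non-deiminated protein, and the measured differences of bright transcripts were small. Signals are relative to the mean of their array, so this result does not cover the total amount of RNA bound. Across the bright probe sets, the median size of a log2 difference between the groups was 0.148, and the values ran from -0.92 to 1.19. The difference exceeded 1.5-fold for 112 bright probe sets (1.61%) and 2-fold for 2. The limit of 200 on every array leaves out RNAs that are low with 1 form of the protein, which holds these differences down. Of 8483 probe sets with a mean signal above 200, 274 (3.23%) exceeded 1.5-fold and 20 exceeded 2-fold, with values from -1.44 to 1.67. Over all 45037 probe sets, most of them dim and noisier, 29.0% exceeded 1.5-fold. The 95% interval of the difference lay within 2-fold either way for 5203 bright probe sets (74.9%) and within 4-fold for 6948. In fits of 3 arrays the share within 2-fold was 9.97% without deiminated replicate 1, 12.4% without deiminated replicate 2, and 49.8% and 57.8% without non-deiminated replicates 1 and 2. It lay within 1.5-fold for 0, so every interval reached past 1.5-fold in at least 1 direction. Over all 45037 probe sets the shares within 2-fold and 4-fold were 17.8% and 61.2%. The 1 bright probe set whose interval passed 4-fold belongs to Preb, which encodes a factor of transport from the endoplasmic reticulum and was singled out after its values were seen. Its signals were 1148 and 4622 with the deiminated protein and 414 and 3629 without, so that replicate 2 was far higher than replicate 1 in both groups.

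limma called 0 of 45037 probe sets at an adjusted p under 0.05 (0%), and 894 (1.99%) had an unadjusted p under 0.05. Its adjusted p was 0.9999 or above for every probe set. Among the bright probe sets 35 had an unadjusted p under 0.05. That count of 894 was 268 without deiminated replicate 2 and 4502 without non-deiminated replicate 1, with 0 calls each time. Without deiminated replicate 1, limma called 1 probe set, which has no gene listed here and had a log2 difference of -2.61 (adjusted p = 0.0423). Its signals were 294 and 54.8 with the deiminated protein and 343 and 365 without, so the call rests on the lone low value of deiminated replicate 2, which is then assumed to vary like the non-deiminated arrays.

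Arrays of 1 group differed as much as arrays of different groups. The median size of the log2 difference across the bright probe sets was 0.271 within the deiminated pair and 0.386 within the non-deiminated pair. Between the groups it was 0.196 for both replicates 1, 0.271 for both replicates 2, 0.318 for deiminated replicate 1 against non-deiminated replicate 2, and 0.317 for the last pair. The closest arrays were therefore 1 of each group, the ones with the lower hybridisation controls. The 2 within-group differences went together: 1920 bright probe sets were higher on replicate 2 of both groups and 2550 were lower on it. Pearson's r between them was 0.447 across bright probe sets, which are not independent replicates and share arrays of the same control level. The differences between groups at the lower and at the higher control level had r = -0.21 and the same sign for 43.3% of bright probe sets. With the control level as a block, limma made 0 calls, and the unadjusted p of 1886 probe sets was under 0.05.

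**Figure D1:**
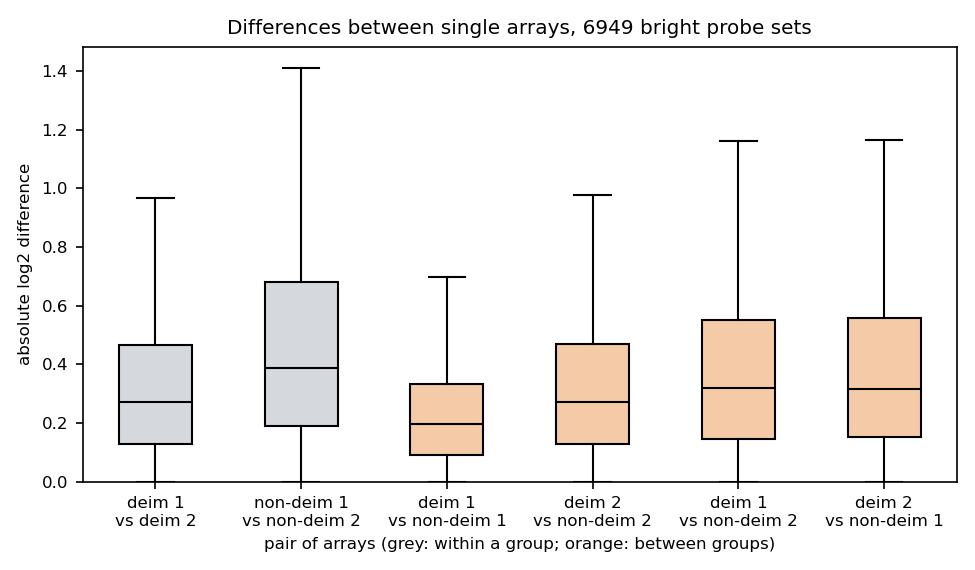
Absolute log2 differences between single bound arrays over the 6949 bright probe sets, with boxes for the median and quartiles, whiskers to 1.5 times the box height and outlying points not drawn. Grey boxes compare arrays of 1 group (medians 0.271 and 0.386) and orange boxes arrays of different groups (medians 0.196 to 0.318), and the boxes of both kinds overlap.

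The groups did not overlap for 756 bright probe sets with the deiminated arrays above (10.9%) and for 597 with them below (8.59%). Over all probe sets the counts were 5216 above (11.6%) and 6632 below (14.7%). The split of the bright ones rests on the scaling, since 674 lay above and 720 below when each array was centred on its bright probe sets. The share of bright probe sets with a positive difference was 49.1% where the lowest signal lay between 200 and 400, 54.2% from 400 to 1000 and 64.5% over 1000. The share that did not overlap went the other way, at 21.2%, 20.4% and 15.6%. Just inside the limit of 200 lay Tmie, with a lowest signal of 200.03 and a log2 difference of -0.14, and Ppp5c, with 200.06 and -0.31. Just outside lay Zfp523, with 199.92 and 0.01, and Pdgfa, with 199.94 and 0.02.

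Several probe sets of a gene measure the same RNA on the same arrays, and 1162 genes had at least 2 bright ones. All of them pointed 1 way in 548 genes (47.2%), with 318 positive and 230 negative. For the 841 genes with exactly 2 the share was 52.9%, and for the 321 genes with more it was 32.1%. Across genes, the brightest and the second brightest probe set had r = 0.175 for the group difference, 0.309 for the difference within the deiminated pair and 0.196 for that within the non-deiminated pair. In the 841 genes with exactly 2, the shares with the same sign were 52.9%, 58.4% and 51.6% in that order. By r, agreement for the group difference, taken between means of 2 arrays, lay below that for both differences between single arrays of 1 group. By shared sign it lay between them. Single arrays of different groups had r = 0.241 at the lower and 0.199 at the higher control level, with shared signs in 50.2% and 56.4%. Both r values lay above the 0.196 of the non-deiminated pair, so differences between and within groups are not ranked by agreement. These values describe genes that share arrays and are not independent.

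**Figure D2:**
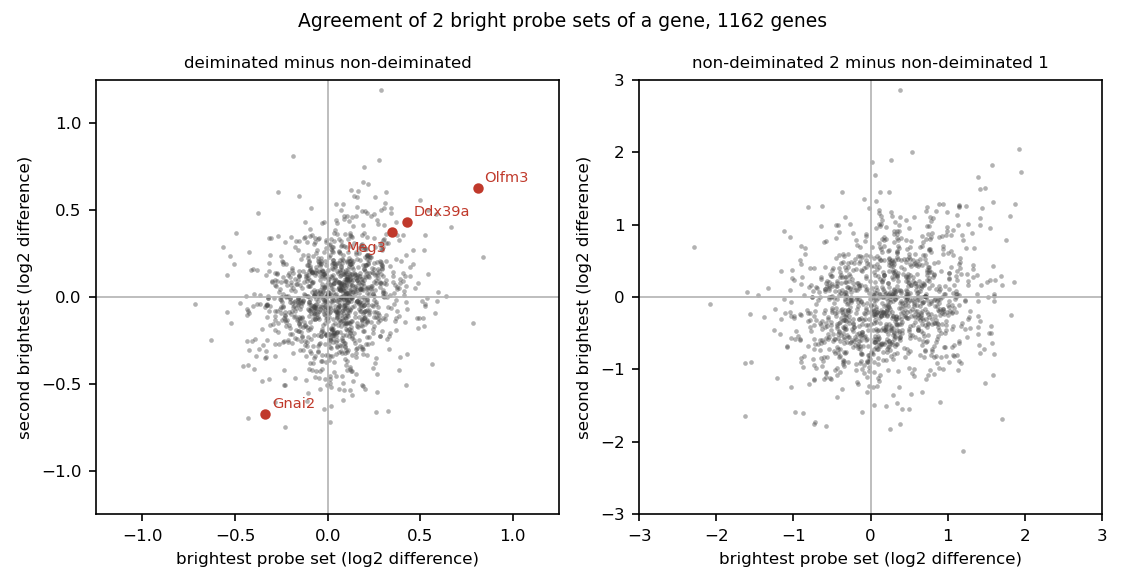
Log2 difference of the second brightest against the brightest probe set for each of the 1162 genes with at least 2 bright probe sets, for deiminated minus non-deiminated (left) and for non-deiminated replicate 2 minus replicate 1 (right, a wider scale). Both clouds are nearly round, with r = 0.175 and 0.196, and Olfm3 stands farthest out among the genes marked.

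In 21 of these genes every bright probe set had groups that did not overlap, 15 with the deiminated arrays above and 6 below. The genes named next were taken from them by the size of their mean difference, so their direction and separation were fixed by the choice and support nothing. None passed the test (limma adjusted p = 0.9999). Olfm3, which encodes a secreted olfactomedin glycoprotein of neurons, had the largest difference. Its brighter probe set read 1057 and 916 with deimination and 803 and 389.96 without. The lowest value, on non-deiminated replicate 2, set much of the log2 difference of 0.81 ± 0.35 (SE, 0.08 to 1.54). The second probe set read 549.5 and 506 against 373 and 310.1, a log2 difference of 0.63 ± 0.30.

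Ddx39a was the only gene with 3 bright probe sets that all separated the groups. It encodes a DEAD-box RNA helicase that works with REF/Aly adaptors in mRNA export, so it belongs to the pathway of the protein studied. The brightest of the 3 read 1012 and 915 with the deiminated protein and 723 and 702 without, the second 930.2 and 901 against 574 and 798, and the third 869.9 and 785 against 669 and 599. The log2 differences were 0.43 ± 0.29, 0.43 ± 0.30 and 0.38 ± 0.29, each with a 95% interval that included 0. A dimmer probe set of the gene had 0.28 and another had -0.26. Ddx39b, its near-identical paralog and the helicase of the TREX complex, gave no like separation, with 1103 and 1137 against 1375 and 1016 on its brightest probe set. The log2 difference there was -0.08 ± 0.31, and on its second bright probe set -0.28 ± 0.32. The names of 2 of the 3 Ddx39a probe sets end in x, a mark for probes that can also match other transcripts, so signal shared between the paralogs cannot be separated.

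Another 6 genes were named with the deiminated arrays above on every bright probe set. Zc3h13 encodes a component of the complex that methylates adenosine in mRNA. Its probe sets read 683 and 989 against 673 and 672, and 484 and 747 against 393 and 457, with log2 differences of 0.29 ± 0.30 and 0.50 ± 0.31. On both, deiminated replicate 2 was the high array, and replicate 1 barely exceeded the non-deiminated arrays. Cnot2, a subunit of the CCR4-NOT complex that shortens poly(A) tails, read 1386 and 1302 against 971 and 1042 on the probe set with the larger difference, 0.42 ± 0.30, and had 0.30 ± 0.31 on the other. Ccar1, a transcriptional coactivator, read 374 and 379 against 266 and 272 on its dimmer bright probe set. There the arrays of each group lay close together, at a log2 difference of 0.48 ± 0.30, and the brighter one had 0.25 ± 0.30. The histone demethylase Kdm5c read 386 and 268 against 255 and 229, with 0.41 ± 0.32, and its other bright probe set had 0.35 ± 0.33.

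Rnf112, a ubiquitin ligase of the nervous system, read 829.7 and 988 with deiminated and 708 and 566 with non-deiminated protein, a log2 difference of 0.51 ± 0.30, and had 0.31 ± 0.35 on its brighter probe set. Ttc13, a tetratricopeptide repeat gene, read 2968 and 3340.0 against 2060.2 and 2333, with 0.52 ± 0.35, and had 0.27 ± 0.31 on the other. The 7 further genes of this kind with the deiminated arrays above had mean log2 differences of 0.26 to 0.36.

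For 6 genes every bright probe set was lower on the deiminated arrays. Gnai2, the alpha subunit of an inhibitory G protein, read 255 and 215 with the deiminated protein and 318 and 446 without, a log2 difference of -0.67 ± 0.32. Its brighter probe set read 2422 and 2115 against 2579 and 3169, with -0.34 ± 0.35. In both, non-deiminated replicate 2 was the highest array. Slc25a29, a mitochondrial carrier of basic amino acids, read 646 and 412 against 654 and 769, with -0.46 ± 0.31, and had -0.40 ± 0.32 on the second. Here deiminated replicate 1 nearly touched the non-deiminated arrays, and replicate 2 alone was low.

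Wars, the cytoplasmic tryptophanyl-tRNA synthetase, read 251 and 242 against 382 and 323, with -0.51 ± 0.31, and had -0.24 ± 0.29 on its brighter probe set. Eif5a, a translation factor that carries the modified amino acid hypusine, read 5927 and 5346 against 6139.65 and 7157 on its brighter one. The log2 differences were -0.24 ± 0.44 and -0.42 ± 0.31. For Pcdh17, a protocadherin of neuronal contacts, they were -0.31 ± 0.30 and -0.33 ± 0.30, and for Stam, an adaptor that sorts ubiquitinated cargo on endosomes, -0.33 ± 0.30 and -0.25 ± 0.32.

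**Figure D3:**
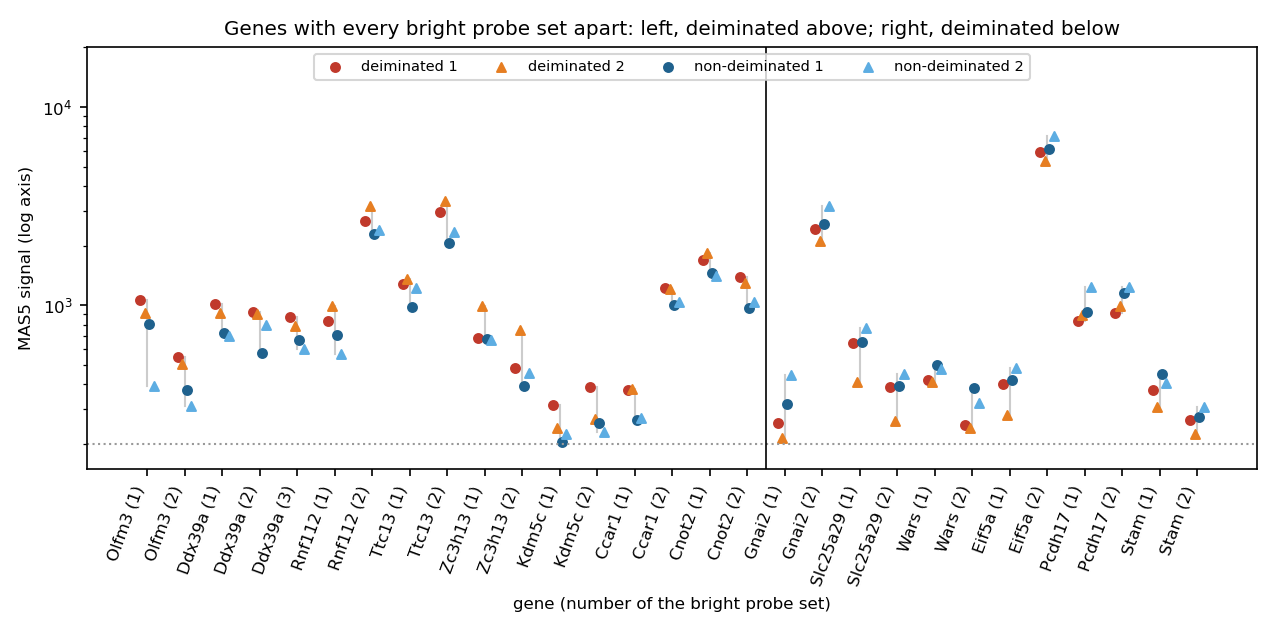
MAS5 signal (log axis) on each of the 4 bound arrays for every bright probe set of the 14 genes named for agreeing probe sets, deiminated in red and orange and non-deiminated in dark and light blue, with a dotted line at 200. The groups were chosen not to overlap, and in many columns, such as the brighter Olfm3 or Gnai2 probe sets, 1 array stands apart from the other 3.

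Genes with a single bright probe set gave larger differences, with no second bright probe set to set beside them. They too were chosen for groups that did not overlap, and none passed the test. Pde7b, a phosphodiesterase that breaks down cyclic AMP, read 584 and 997 with the deiminated protein and 421 and 339.9 without. The log2 difference was 1.01 ± 0.32 (0.32 to 1.69), with an unadjusted p of 0.00707 in limma (adjusted p = 0.9999). Its 2 dimmer probe sets went the other way, at -0.78 and -1.13. Mtres1, which encodes a mitochondrial factor of transcription, read 1587 and 1539 against 971 and 674, with 0.95 ± 0.31 (0.28 to 1.61). The deiminated arrays were nearly equal there and the non-deiminated ones were not.

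Top2b, the DNA topoisomerase of postmitotic neurons, read 517 and 349.9 against 219 and 251, with 0.85 ± 0.32. Pomc, the precursor of several peptide hormones of the hypothalamus and pituitary, read 609 and 513 against 268 and 362, with 0.84 ± 0.31. Dgkh, a diacylglycerol kinase, read 725 and 756 against 599 and 319, with 0.75 ± 0.33. In Dgkh the low array was again non-deiminated replicate 2, whereas the arrays of Pomc lay closer within each group than across them. A dimmer Pomc probe set had overlapping groups and 0.10. The dimmer probe sets of Top2b, with signals of 14.5 or lower, had -0.39 and -0.59, and those of Dgkh had -0.33 and -0.46. The largest bright difference of all, 1.19 ± 0.33, belonged to 1 of the 2 bright probe sets of Klf12, a zinc finger transcription factor named after its values were seen. It read 682 and 739 against 419.8 and 227, and the other bright probe set of the gene had overlapping groups and 0.29 ± 0.30.

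In the other direction, Ldha, the lactate dehydrogenase subunit that favours lactate formation, read 874 and 732 with the deiminated protein and 2265 and 1015 without. The log2 difference of -0.92 ± 0.37 (-1.69 to -0.14) was drawn by the high value on non-deiminated replicate 1. Its partner subunit Ldhb had 4 bright probe sets, with differences of -0.02 to 0.07. Epn1, an endocytic adaptor, read 228 and 284 against 434 and 485, with -0.84 ± 0.31, and the arrays of each group lay closer to each other than to those of the other group. Tcf7l2, a transcription factor of Wnt signalling, read 378 and 327 against 555 and 639.9, with -0.75 ± 0.30. Its dimmer probe sets had -0.48, 0.01 and 2.28, the last from very low signals of 27.3 and 44.5 against 2.96 and 5.24.

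The zinc finger gene Zfp612 read 221 and 383 against 567 and 475, with -0.83 ± 0.33, and -0.44 without deiminated replicate 1, the lowest array. The cardiolipin synthase Crls1 read 338 and 340.4 against 429.7 and 698, with -0.68 ± 0.32, and -0.34 without non-deiminated replicate 2, the highest array. The lipid carrier Apod had -0.68 ± 0.33. Apod read 563 and 301 against 627 and 704, so that deiminated replicate 2 alone was far from the rest. Dimmer probe sets had 0.03 for Zfp612, -0.32 for Crls1 and 0.38 for Apod. By the same rule of size and separation the long non-coding RNA Miat belongs with the single probe sets above, and its values follow below. Across the 26 genes named for size, Miat included, 20 had dimmer probe sets, and 19 of those 39 had the direction of the bright ones. For the genes with a single bright probe set it was 4 of 14. Over the 41 bright probe sets of the 26 genes, the unadjusted p of limma ran from 0.00707 to 0.601. Leaving out 1 array moved the log2 difference of 24 of the 41 by over 1.5 times, while that of the other 17 stayed within it, among them both bright probe sets of Ccar1, Cnot2 and Wars.

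Long non-coding RNAs had the highest median among the lists with at least 8 bright members. The list mixes RNAs held in the nucleus, such as Malat1, with host transcripts of small nucleolar RNAs and others that also reach the cytoplasm. Of 20 listed RNAs 19 were measured, and 16 had a positive difference, with a median of 0.30 on the log2 scale against -0.02 over all 18193 genes. The groups did not overlap with the deiminated arrays above for 7 of the 19 (36.8%) and below for 0. Over all genes, each represented by its brightest probe set, that was so for 2012 above (11.1%) and 2599 below (14.3%). Among the 10 bright members 4 lay above and 0 below, and 9 were positive. The same over the 4686 genes whose brightest probe set was bright gave 535 above (11.4%), 397 below (8.47%) and a median of 0.04. None passed the test, and the shift of this list was known when the list was kept, so it is no separate support.

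Meg3, a maternally expressed imprinted RNA abundant in neurons, had 9 bright probe sets, the most of any gene. The brightest read 4277 and 8839 with deimination and 3146 and 7415 without, so replicate 2 was the higher array in both groups, with a difference of 0.35 ± 0.51. The probe set with the largest difference read 1911 and 5254 against 1879 and 1472, with 0.93 ± 0.43, and there deiminated replicate 2 stood alone. It was the highest array on 7 of the 9, and 8 of the 9 differences were positive, from -0.31 to 0.93. Without it 5 of the 9 were positive and the values ran from -0.69 to 0.48. Between the replicates 1 of the groups the Meg3 differences ran from -0.80 to 0.44.

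Miat, a nuclear RNA of neurons chosen for its size and separation, read 922 and 1881 against 903 and 722, with 0.70 ± 0.35 and, without deiminated replicate 2, 0.19. As on that last Meg3 probe set, deiminated replicate 1 lay level with a non-deiminated array. The bright probe sets of Gas5 showed a different arrangement. Gas5 and the small nucleolar RNA host gene Snhg11 were both singled out after their values were seen. Gas5, the host of several small nucleolar RNAs, read 1674 and 1743 against 1282 and 1497, with 0.30 ± 0.31, and 575 and 589.6 against 482 and 444 on its second bright probe set, with 0.33 ± 0.29. Its deiminated arrays were nearly equal and above the others on both, though the interval included 0 each time. Dimmer probe sets of Gas5 had overlapping groups, at 0.12 and -0.78. Snhg11 read 799 and 1079 against 687 and 567, with 0.57 ± 0.30, so deiminated replicate 2 was again the highest array. A dimmer Snhg11 probe set had overlapping groups and 0.19. Snhg8, a further host gene, had 0.19 ± 0.34.

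Malat1, which is held in nuclear speckles, did not separate the groups. Its brightest probe set read 5992 and 7374 against 8302 and 4719, with 0.09 ± 0.47, and the next in signal had -0.05 and -0.11. A dimmer probe set of Malat1 read 293 and 556 against 213 and 105, with 1.41 ± 0.40, so the probe sets of this RNA disagreed. The summed signal of the 19 RNAs was 22333 and 32124 with the deiminated protein and 22746 and 23669 without. Deiminated replicate 2 was thus the only high array, and it also had the lowest mean signal of the 18S ribosomal RNA controls, 1742 against 2744 to 3179 on the other 3. The median of the list was 0.08 without that array, 0.36 without deiminated replicate 1, and 0.19 and 0.37 without non-deiminated replicates 1 and 2. The part of this array in the list's difference was not tested.

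**Figure D4:**
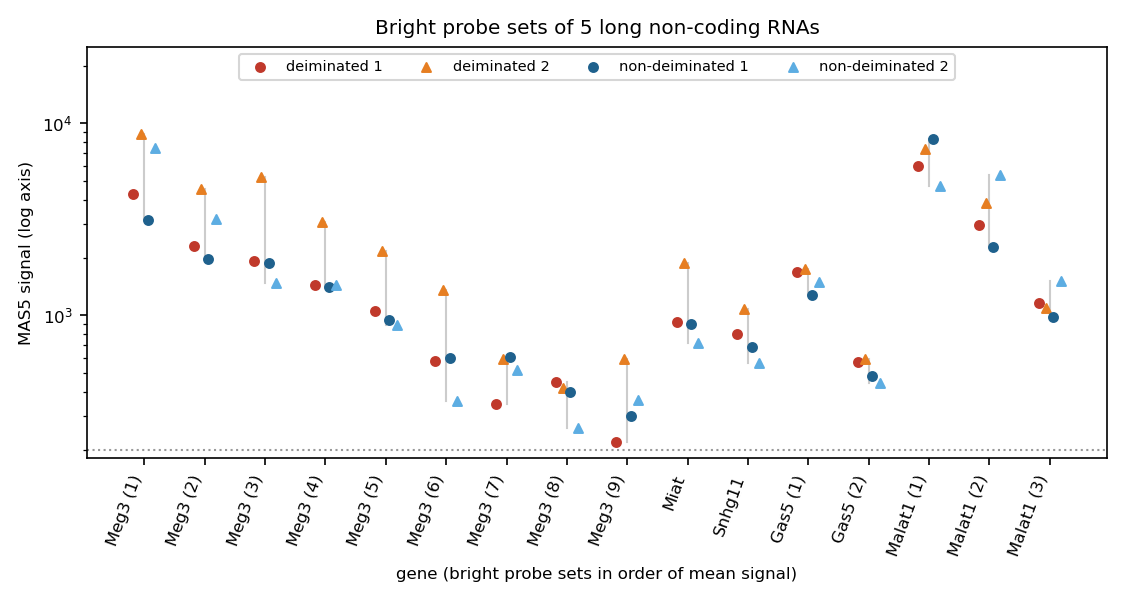
MAS5 signal (log axis) on each bound array for the bright probe sets of Meg3, Miat, Snhg11, Gas5 and Malat1, with a dotted line at 200. Deiminated replicate 2 (orange triangles) is the highest array on 7 of 9 Meg3 probe sets and for Miat, whereas both deiminated arrays of Gas5 lie above both non-deiminated ones.

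Genes of the machinery to which the protein belongs lay on both sides. Of 15 measured REF/Aly and TREX genes, 3 (20.0%) had groups that did not overlap with the deiminated arrays above and 1 (6.67%) below, against 11.1% and 14.3% over all genes. The median was -0.01. Alyref, a founding adaptor of the family, was dim, at 30.9 and 58.3 against 27.8 and 78.7. Replicate 2 was the higher array in both groups, and the difference was -0.14 ± 0.70. No probe set was listed here for Alyref2. Thoc2, the scaffold of the THO complex, had -0.19 ± 0.30, Thoc7 -0.03 ± 0.32, and the adaptors Chtop, Poldip3 and Fyttd1 had 0.07 ± 0.33, -0.14 ± 0.38 and -0.30 ± 0.33. Apart from Ddx39a the bright member that separated the groups was Eny2, a small subunit of the nuclear pore associated TREX-2 complex, at 263 and 204 against 291 and 289, with -0.32 ± 0.32.

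Among 16 export receptors and release factors, 1 (6.25%) lay above and 5 (31.2%) below. The 4 bright ones had overlapping groups and positive differences, with a median of 0.19. The receptor gene Nxf1 read 343 and 407 against 360.1 and 276, with overlapping groups and 0.24 ± 0.31, and the exportin gene Xpo1 had 0.06 ± 0.30. None of the 5 that lay below was bright. Of them Ddx19b, a helicase that releases mRNA at the pore, read 39.8 and 32.8 against 96.2 and 75.2, with a difference of -1.15 ± 0.58 (-2.37 to 0.07). It was singled out after its values were seen. None of the 11 genes of the exon junction complex and nonsense-mediated decay separated the groups, and their bright members ran from -0.15 for Upf2 to 0.19 for Rnps1.

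Transcripts of the deimination enzymes were low. Padi2, the main peptidylarginine deiminase of brain, was the only bright one and read 213 and 261 with the deiminated protein against 269 and 310.0 without, with -0.29 ± 0.32. Padi1 read 13.1 and 47.4 against 16.6 and 21.7, and the signals of Padi3, Padi4 and Padi6 were 18.2 or lower on each array. Of 9 measured transcripts of known deiminated brain proteins, all bright, 0 separated the groups. Mbp, for myelin basic protein, had 0.02 ± 0.80 and Gfap, the astrocyte filament, 0.13 ± 0.30.

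The brightest RNAs differed between arrays of 1 group far more than between the groups. Rps29, a ribosomal protein gene and the brightest of all, read 15839 and 34600 with the deiminated protein and 12328 and 45159.6 without. Mbp read 14068 and 33403 against 10834 and 42153, and Ttr 12881 and 34919 against 10627 and 40571. In all of them replicate 2 was the higher array in both groups. For the 8 brightest genes, which also include Nsmf, Cpe, Stmn3, Tuba1a and Hint1, replicate 2 exceeded replicate 1 by 1.55 to 2.79-fold with the deiminated protein and by 1.78 to 3.89-fold without. Their group differences ran from -0.06 to 0.18 with standard errors of 0.66 to 0.81, so the intervals of these RNAs were wide. The arrays that read higher were those with the higher hybridisation controls.

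Brain cell markers and the main classes of neuronal RNA had medians near that of all genes. Of 27 neuronal markers 4 (14.8%) lay above and 4 (14.8%) below, against 11.1% and 14.3% over all genes, with a median of 0.11. Among the 26 bright markers 4 lay above and 4 below, and over all bright genes the shares were 11.4% and 8.47%. The dendritic microtubule protein gene Map2 read 1226 and 1456 against 1184 and 919, with 0.36 ± 0.31, and the potassium channel gene Kcnc1 had 0.37 ± 0.35. The vesicle protein gene Syn1 read 271 and 239 against 365 and 315, with -0.41 ± 0.31, and Gad1, which makes GABA, had -0.33 ± 0.35. The vesicular GABA transporter gene Slc32a1 lay on the other side, at 0.19, and no direction is read for the inhibitory markers. Of 22 dendritically localised transcripts 3 (13.6%) lay above and 4 (18.2%) below, with a median of 0.03. They include Kif5a, a kinesin motor gene, at 0.48 ± 0.47, and Shank3, a scaffold of the postsynaptic density, at -0.27 ± 0.30.

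Neurite outgrowth and guidance genes had 2 (7.14%) above and 5 (17.9%) below of 28, against 11.1% and 14.3% over all genes. Their median was 0.01. The guidance receptor gene Epha4 read 679.7 and 565 against 489 and 437, with 0.42 ± 0.29. Nrp1, the semaphorin receptor, read 591 and 325 against 634 and 719.9, with -0.62 ± 0.33, and Mapt, which encodes tau, had -0.30 ± 0.30. The 22 synaptic vesicle genes had a median of -0.05, with 1 (4.55%) above and 1 (4.55%) below. The 19 tubulins and actins had -0.06, with 0 and 0. The bright tubulins and actins ran from -0.20 to 0.23.

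Glial lists also had medians near 0. The 16 astrocyte genes had 0.03, with 2 (12.5%) above and 1 (6.25%) below. The 14 oligodendrocyte genes had 0.01, with 4 (28.6%) above and 0 below, against 11.1% and 14.3% over all genes, and of their 12 bright members 6 were positive and 6 negative. S100b had 0.21 ± 0.34 and the lipoprotein gene Apoe 0.19. The myelin genes Mobp and Mal had 0.21 ± 0.43 and 0.20 ± 0.30 with groups that did not overlap, while Mag, an adhesion molecule of myelin, had -0.47 ± 0.33 with groups that did. The microglial growth factor receptor gene Csf1r read 3707 and 3909 against 2948 and 3377, with 0.27 ± 0.37. The median was 0.07 for 13 microglial, -0.02 for 11 endothelial and 0.01 for 8 choroid plexus genes.

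Genes of protein synthesis, folding, breakdown and energy supply had medians between -0.06 and 0.08. Of 44 cytosolic ribosomal protein genes 15 were positive, with a median of -0.06, 2 above and 3 below. Rps19 read 951 and 804 against 1165 and 1259, with -0.47 ± 0.30, whereas Rps2 had 0.43 ± 0.45 with overlapping groups. The 31 translation factors had a median of 0.00, the 31 proteasome genes -0.02, the 64 genes of oxidative phosphorylation 0.02 and the 13 of glycolysis 0.05. Heat shock and chaperonin genes had 0.08, with 1 above and 2 below of 27. In oxidative phosphorylation 3 lay above and 2 below, among them Ndufb3 at 0.29 ± 0.35 and Ndufa10 at -0.24 ± 0.31, both subunits of complex I. Each of these lists had a smaller share above than the 11.1% and a smaller share below than the 14.3% of all genes. Most of their members were bright, and bright genes had 11.4% above and 8.47% below. Glycolysis, with 1 of 13 (7.69%) each way, lay close to the latter. Non-overlap was also rarer at higher signal, so the smaller shares are not read as a trait of these lists.

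Splicing factors and hnRNPs, which bind pre-mRNA in the nucleus, had a median of 0.07, with 24 of 39 positive. Of the 39, 3 (7.69%) lay above and 4 (10.3%) below, against 11.1% and 14.3% over all genes. Hnrnpa1 had 0.29 and Hnrnpu 0.21 above, and Hnrnpm read 335 and 506 against 509 and 559 with -0.37 ± 0.31 below. Srsf11 and Hnrnph1 had 0.50 each with groups that overlapped. Immediate early genes, which neuronal activity switches on, had a median of 0.17, with 14 of 19 positive, 4 (21.1%) above and 2 (10.5%) below. Their 8 bright members had a median of 0.02, with 4 positive and 4 negative. The related receptors Nr4a3 and Nr4a1 stood on opposite sides, at 0.34 ± 0.30 and -0.40 ± 0.32, and Egr1 had 0.29 ± 0.38. Among 5 histone genes measured, H2bc21 lay above at 0.27 ± 0.30.

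Lists of some other tissues had medians farther from 0, but hardly any of their members were bright. The 17 photoreceptor genes had -0.33, with 1 (5.88%) above and 7 (41.2%) below, against 11.1% and 14.3% over all genes, and their summed signal was 226 and 296 with the deiminated protein and 266 and 500.3 without. The high sum came from non-deiminated replicate 2, and 0 of the 17 were bright. The 12 liver genes had -0.53, the 10 genes of the meninges -0.27 and the 11 of skeletal muscle 0.23. Of 29 list medians, 4 kept their sign under every alternative run, those of the long non-coding RNAs, immediate early genes, meninges and photoreceptors. The other 25 turned under at least 1 change of scaling, pseudocount or arrays, so no direction is read from them. Among the 4, bright members alone had medians of 0.01 for the meninges (2 genes) and 0.02 for immediate early genes (8 genes). Over all probe sets that were not bright the median was -0.06. The size of the 4 also rests on single arrays. Without non-deiminated replicate 2 the medians were -0.05 for photoreceptors, -0.10 for meninges and 0.08 for immediate early genes. Without non-deiminated replicate 1 they were -0.53, -0.55 and 0.25, without deiminated replicate 2 -0.39, -0.27 and 0.32, and without deiminated replicate 1 -0.27, -0.18 and 0.09.

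**Figure D5:**
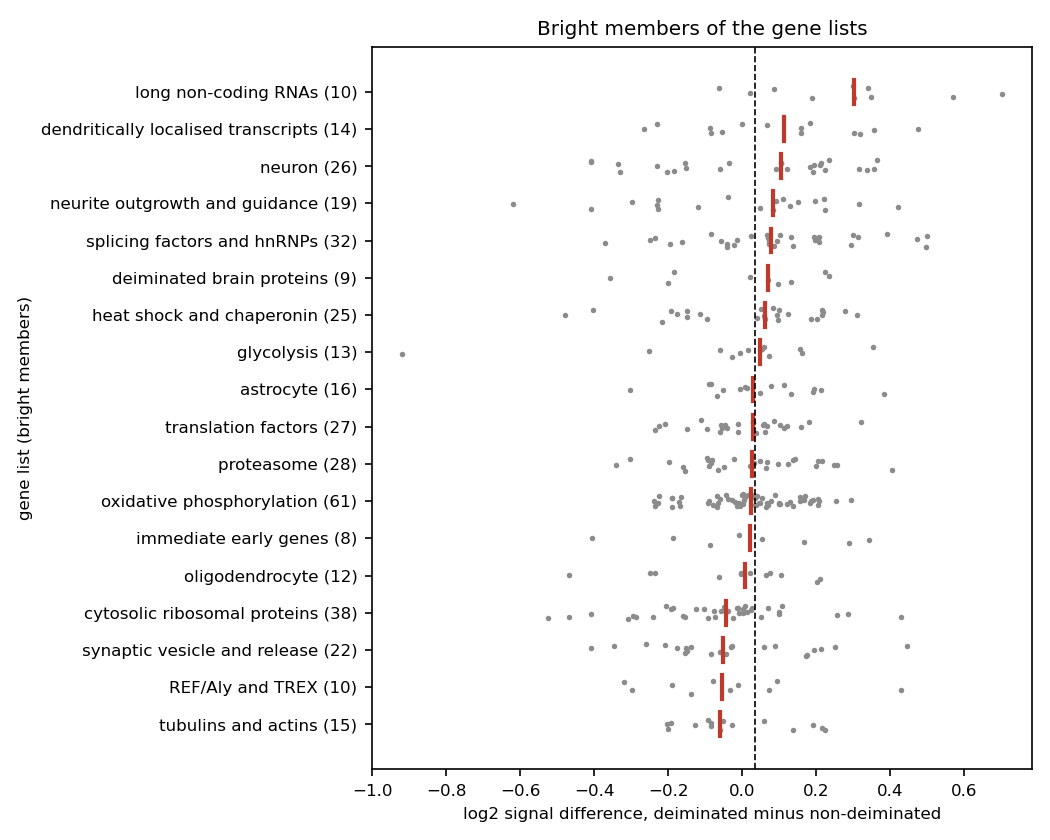
Log2 differences (deiminated minus non-deiminated) of the bright members of each list with at least 8 of them, as grey points, with the list median as a red bar and the median of all genes whose brightest probe set was bright as a dashed line at 0.04. The number of bright members is in parentheses, and the long non-coding RNAs have the highest median, 0.30 over 10 members.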

How the data were processed

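The deposited series matrix held 1 intensity value (MAS5 signal, linear) for each probe set and array. MAS5 is named in the submitters' processing notes, with a version not given in the sources used here. With 2% of values trimmed from either end, each array had a mean of 150, so the authors' values had been scaled to a common level. Gene symbols came from the platform annotation: of 45037 probe sets that are not controls, 34945 had 1 symbol, 932 several and 9160 none listed.

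The values were not normalised further. limma 3.58.1 in R 4.3.3 (lmFit, then eBayes with trend) was fitted to log2(signal + 4) of the 4 bound arrays over all 45037 probe sets, with no filter, and p-values were adjusted by Benjamini-Hochberg over all of them. The script was tested on simulated data. Errors after ± are limma's standard errors (n = 2 and 2), intervals cover 95%, and the number of arrays limits the precision. Groups do not overlap where both arrays of a group exceed both of the other.

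The members and the 30 gene lists, written from textbook knowledge, were chosen with earlier results of these data known. For a list, the probe set with the highest mean log2 signal stands for a gene. Of 662 genes listed, 557 were measured. Genes were named by rule: up to 8 per direction whose bright probe sets all had groups that did not overlap, 6 per direction with a single such bright probe set, the 8 brightest genes, the 5 with the most bright probe sets, the 2 brightest members of each list, Alyref and the Padi genes, and any called gene. List members with values of interest are named beside them after their values were seen. Alternatives covered the pseudocount, normalisation, the signal limit, a filter, the variance model, blocks and leaving out each array.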

Additional observations from a re-analysis of the deposited data

How the results depend on the processing

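limma called 0 probe sets under each alternative except when deiminated replicate 1 was left out, with a range of 0 to 1 when each array was left out. The unadjusted count of 894 became 1886 with the hybridisation control level as a block, 670 with the protein name in the titles as a block, 357 of 27022 with a filter at the 40th percentile of mean signal and 1464 without a trend. It ran from 268 to 4502 when each array was left out. A block for the control level over the bright probe sets alone, chosen after seeing the data, gave 168 and 0 calls. The 1353 bright probe sets whose groups did not overlap became 2321 (21.5%) with signals above 100 and 748 (18.3%) above 400, and 3217 to 4913 when an array was left out, which leaves 3 arrays to overlap. Of the 1353, 55.9% lay above, against 48.4% after centring on the bright probe sets and 47.8% after cyclic loess. The share of genes whose bright probe sets pointed 1 way, 47.2%, was 44.5% above 100, 50.3% above 400, 46.2% with the mean signal above 200 and 44.7% to 50.3% when an array was left out. Intervals within 2-fold covered 74.9% of bright probe sets, 75.0% to 80.3% under the other scalings and pseudocounts and 9.97% to 57.8% when an array was left out. Of 29 gene lists 18 had a positive median, and 11 to 19 had one when an array was left out. The labels give no replicate numbers that pair arrays, so the blocks above are the only paired fits.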

Other observations

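Genes with many bright probe sets gave the closest look at agreement between probe sets of 1 gene. The high ratios of 3' to 5' signal of the actin and Gapdh controls limit that look. Ywhaq, which encodes a 14-3-3 protein, had 7, with log2 differences of -0.23 to 0.09 and groups that overlapped on each. Nap1l1, a histone chaperone gene, had 7 as well, from -0.25 to 0.26. Hnrnpdl, an RNA-binding protein gene, had 6, from -0.07 to 0.63, and its largest difference came from signals of 432 and 653 with the deiminated protein and 475 and 245 without, where the groups overlapped. Slc25a5, the mitochondrial carrier that exchanges ADP and ATP, had 6, from -0.50 to 0.02, and the groups did not overlap on 3 of them, all with the deiminated arrays below. On these 3 the probe sets read 627 and 435 against 837 and 656, 611 and 535 against 688 and 913, and 981 and 772 against 1086 and 985. None of them passed limma's test (adjusted p = 0.9999).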
